A study of Mus musculus with 6 samples.

Results

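Accessible chromatin was described at 8 mouse genes that encode naive pluripotency factors, Klf2, Klf4, Klf5, Esrrb, Tfcp2l1, Tbx3, Prdm14 and Zfp42. They were taken by name from 21774 protein-coding genes with a RefSeq transcription start site (TSS) on chromosomes 1 to 19, X or Y. The data were 1 deposited list of ATAC-seq peaks from untreated mESCs of the V6.5 line, which is derived from mouse embryos. ATAC-seq marks accessible DNA by the insertions of the Tn5 transposase. A window was the span of a gene over all its RefSeq transcripts plus 50 kb on each side, and 63 of the 41014 peaks of the list lay in the 8 windows. A promoter peak was one within 1 kb of a TSS. The series has 6 libraries in 3 groups of 2 replicates, which are untreated V6.5 cells, and ZBTB21-degron cells at 0 h and at 6 h of IAA, the auxin that triggers degradation of the tagged ZBTB21 protein. The degron libraries were not analysed here. The labels place the cells on irradiated feeder fibroblasts in medium with serum and LIF, and the study's methods add the inhibitors CHIR99021 and PD0325901. A treatment text that all labels share, untreated samples included, speaks of degron cells and doxycycline. By its name the list stands for both untreated replicates, and it gives no value for each. How the replicates were combined is not given in the sources used here. No spread between replicates, no depth and no test could therefore be given, and every comparison below is a description.

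Naive pluripotency is the state of the epiblast before implantation, and mouse embryonic stem cells keep it in culture under LIF, which acts through STAT3, and under inhibitors of MEK and GSK3. Around the core factors OCT4, SOX2 and NANOG, the products of most of the 8 genes form a network of transcriptional regulators with much mutual input. The levels of the 8 drop when cells leave the naive state. Genes of this kind are known to be controlled largely by enhancers that lie kilobases away from the promoter, and open chromatin at such enhancers is what a peak away from a TSS can mark.

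A peak was listed at the promoter of 3 of the 8 genes (37.5%), Tbx3, Prdm14 and Zfp42, compared with 29.9% of all protein-coding genes. The order turned with a TSS distance of 500 bp, which left 2 of the 8, Tbx3 and Zfp42, compared with 27.9% of all genes. At the other 5 genes the closest peak edge lay between 1046 bp (Tfcp2l1) and 31129 bp (Klf4) from a TSS of the gene. Every one of the 8 windows held at least 1 peak, as did 81.9% of the windows of all protein-coding genes. The windows held 1 to 18 peaks with a median of 7.5, against a median of 4 over all genes, and a median of 5.68 peaks per 100 kb against 2.59. Esrrb had the most peaks, and Klf4, with 1, the fewest. A gene or promoter without a listed peak is only absent from the list, since a list of peaks gives no level elsewhere. The libraries were selected for mono- and dinucleosome fragments, per the labels, and how this bears on promoter peaks was not tested. In a list from many cells, accessibility in part of the cells and weaker accessibility in all of them cannot be told apart.

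The sequences below are shown because the descriptions that follow turn on them: the highest-scored peaks at Zfp42, Esrrb, Tfcp2l1 and Klf2, the single place where a ZBTB21 peak overlaps a peak of these genes, and the promoter of Klf4, which has no listed peak. Each is the central 300 bp of a peak on the plus strand of GRCm38 (mm10), 5′ to 3′, except the last, which is the 250 bp before the TSS of Klf4 on the minus strand, from the RefSeq promoter table of GRCm38.p6. Capitals mark exact matches to the KLF, OCT4 or ESRRB motif in the peaks and to the GC box in the promoter. The motifs are spelled out further on.
Zfp42 promoter peak, chr8:43307027-43307326, upstream of the TSS: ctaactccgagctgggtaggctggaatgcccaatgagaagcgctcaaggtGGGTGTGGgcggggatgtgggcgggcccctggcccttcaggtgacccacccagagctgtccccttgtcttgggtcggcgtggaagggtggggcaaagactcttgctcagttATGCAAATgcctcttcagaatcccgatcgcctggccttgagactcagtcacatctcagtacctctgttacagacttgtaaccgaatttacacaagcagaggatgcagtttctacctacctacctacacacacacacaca
Zfp42 upstream peak, chr8:43320798-43321097, intergenic: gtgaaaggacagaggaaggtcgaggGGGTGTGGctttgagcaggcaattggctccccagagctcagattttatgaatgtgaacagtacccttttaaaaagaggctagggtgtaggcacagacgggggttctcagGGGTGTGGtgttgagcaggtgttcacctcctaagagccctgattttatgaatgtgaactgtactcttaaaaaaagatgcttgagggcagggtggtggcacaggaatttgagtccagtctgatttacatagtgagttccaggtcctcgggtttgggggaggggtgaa
Esrrb intronic peak, chr12:86501792-86502091, intron 3: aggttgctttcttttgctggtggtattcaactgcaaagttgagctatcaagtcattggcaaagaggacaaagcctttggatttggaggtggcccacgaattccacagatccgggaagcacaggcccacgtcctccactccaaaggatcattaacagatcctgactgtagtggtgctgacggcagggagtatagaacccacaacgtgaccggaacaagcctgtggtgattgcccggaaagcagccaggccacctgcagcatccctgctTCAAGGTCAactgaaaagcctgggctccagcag
Esrrb exonic peak, chr12:86470076-86470375, intron 1 and the start of exon 2: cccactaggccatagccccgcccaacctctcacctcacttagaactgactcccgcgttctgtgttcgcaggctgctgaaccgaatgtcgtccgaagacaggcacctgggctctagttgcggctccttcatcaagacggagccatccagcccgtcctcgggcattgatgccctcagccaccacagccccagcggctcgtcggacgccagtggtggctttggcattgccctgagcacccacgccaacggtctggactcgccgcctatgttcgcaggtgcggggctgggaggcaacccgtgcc
Tfcp2l1 downstream peak, chr1:118689990-118690289, intergenic: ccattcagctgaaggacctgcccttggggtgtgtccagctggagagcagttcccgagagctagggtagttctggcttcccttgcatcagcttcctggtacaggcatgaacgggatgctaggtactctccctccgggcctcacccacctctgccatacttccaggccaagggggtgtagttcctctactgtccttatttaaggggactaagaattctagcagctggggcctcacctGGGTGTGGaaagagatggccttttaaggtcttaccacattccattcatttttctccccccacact
Klf2 upstream peak, chr8:72316214-72316513, intergenic: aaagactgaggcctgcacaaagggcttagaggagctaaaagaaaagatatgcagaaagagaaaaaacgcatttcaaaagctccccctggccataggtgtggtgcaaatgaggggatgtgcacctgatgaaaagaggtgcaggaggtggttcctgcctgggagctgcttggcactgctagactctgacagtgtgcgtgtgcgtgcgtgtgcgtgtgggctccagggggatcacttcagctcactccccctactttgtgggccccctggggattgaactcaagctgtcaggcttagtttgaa
Klf4 promoter, chr4:55532476-55532725, minus strand: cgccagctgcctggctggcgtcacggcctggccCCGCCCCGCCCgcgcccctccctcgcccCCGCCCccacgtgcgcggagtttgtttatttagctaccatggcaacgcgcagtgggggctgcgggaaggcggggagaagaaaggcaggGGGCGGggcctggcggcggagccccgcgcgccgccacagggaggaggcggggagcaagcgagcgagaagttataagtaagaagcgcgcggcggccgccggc

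The score is a whole number that the authors' list gives for each peak. It runs from 540 to 953 with a median of 696, and it was used only to order peaks within the list. What the score measures is not given in the sources used here. Its minimum of 540 equals the scaled score at an IDR of 0.05, so it may rank peaks by their reproducibility between the replicates, and a high score or percentile is not read as stronger accessibility. Distances are from the first TSS of a curated transcript to the midpoint of a peak, and negative distances are upstream.

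Klf2, Klf4 and Klf5 encode Krüppel-like zinc finger factors that bind the same GC-rich sequence and can stand in for each other in the naive network. None of the 3 genes had a listed promoter peak, although other peaks lay in each window. Klf2 (chr8:72319062-72321654, plus strand) had 4 peaks, all upstream, at -41.2, -26.4, -7.88 and -2.70 kb, with scores of 716, 689, 809 and 902. The score of the peak at -2.70 kb was at percentile 98.6 of the list, and its edge lay 2307 bp from the TSS. No peak lay in the gene or in the 50 kb downstream of it. The 4 peaks gave 3.90 per 100 kb, which is at percentile 66.6 of all protein-coding genes.

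Klf4, a factor known from reprogramming to pluripotency and as a target of STAT3, stood lowest of the 8 genes. Its window (gene at chr4:55527137-55532475, minus strand) held 1 peak, 614 bp wide with a score of 785, at 31.4 kb downstream of the TSS. This count was at percentile 28.3 of all genes. With flanks of 100 kb there were 5 peaks, of which 3 more lay downstream, at 56.9, 68.1 and 88.7 kb, with scores of 677, 841 and 595. One more lay upstream at -51.3 kb with a score of 623. The highest score around Klf4 therefore belonged to a peak outside the 50-kb window.

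Klf5, which also acts in the first lineage decisions of the embryo, had 7 peaks in its window (gene at chr14:99298691-99313412, plus strand). One of them lay upstream, at -36.5 kb with a score of 564, and 6 lay downstream of the gene. Scores of the downstream peaks were 783 at 22.3 kb, 828 at 26.1 kb, 556 at 27.3 kb, 743 at 41.5 kb, 725 at 54.5 kb and 731 at 57 kb. The peak at 41.5 kb was the widest, with 999 bp. Klf5 thus had no listed peak between 36233 bp upstream and 22037 bp downstream of its TSS, a stretch that holds the whole gene.

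**Figure D1:**
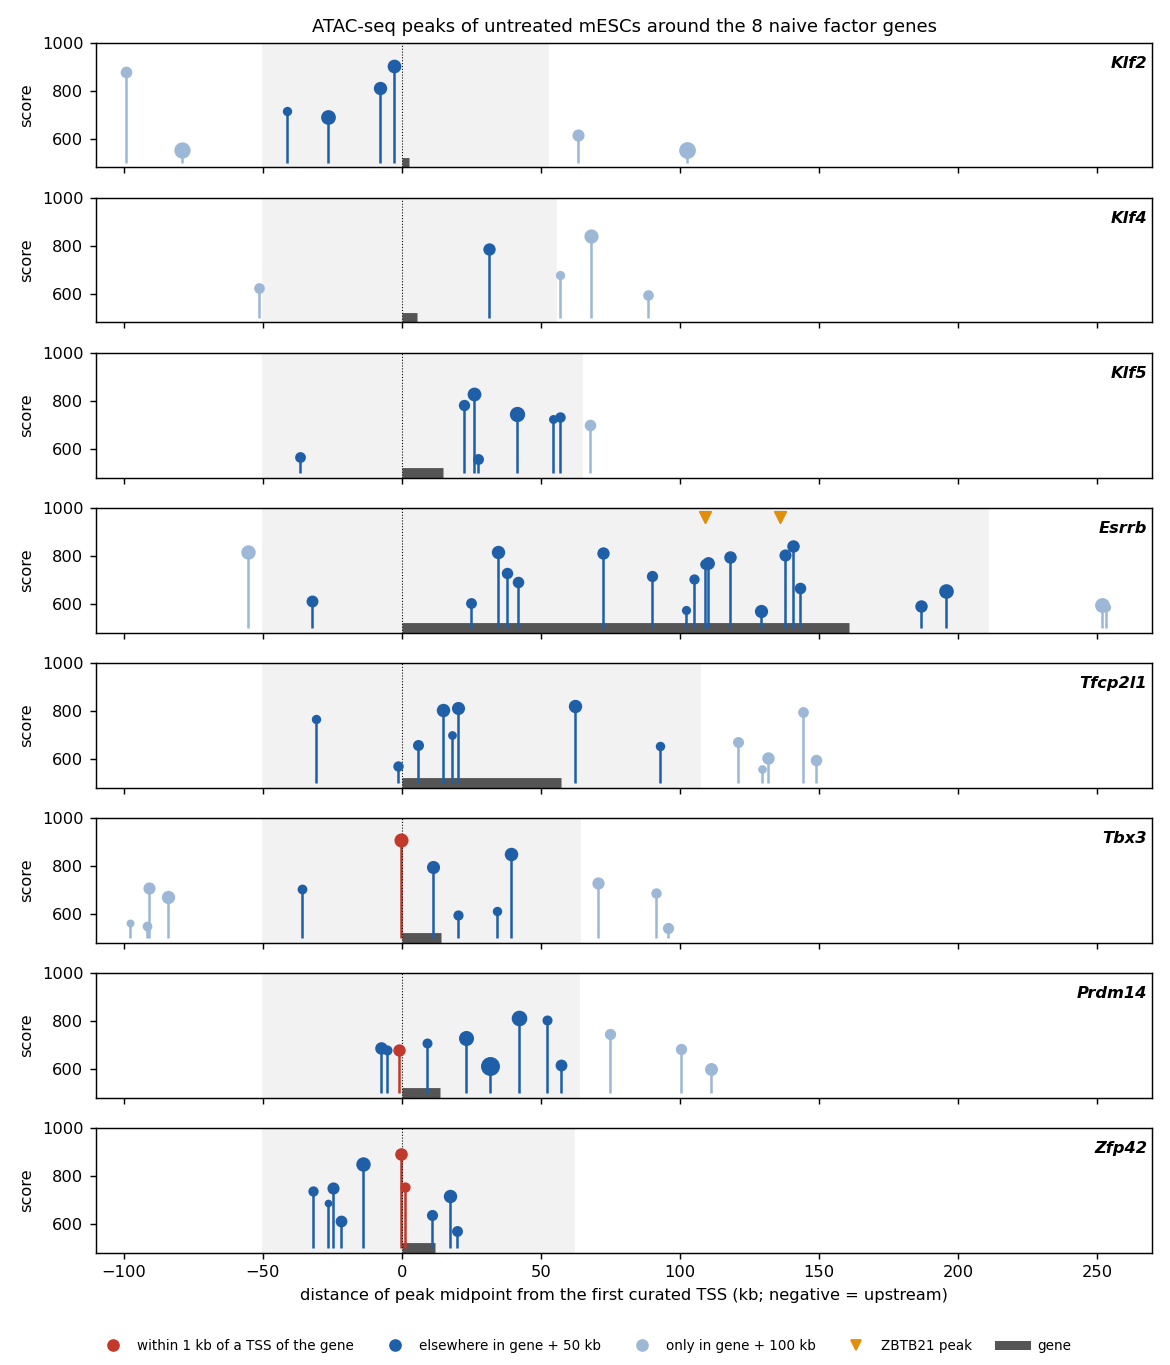
Peaks around each of the 8 genes: distance of the peak midpoint from the first curated TSS (x, kb) against the score of the peak (y). Grey shading is the window of 50 kb on each side of the gene (dark bar), point area follows peak width, red points lie within 1 kb of a TSS of the gene, pale points lie only in the 100-kb flank, and triangles are ZBTB21 peaks. Klf2 has all 4 window peaks upstream, Klf5 has 6 of 7 downstream, and Esrrb has 15 of 18 inside the gene.

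Esrrb encodes an orphan nuclear receptor that is a target of NANOG and of GSK3 inhibition in stem cells. It is the longest of the 8 genes (chr12:86361117-86521628, plus strand, 161 kb), and its 18 peaks were at percentile 99.6 of all genes. Since a longer gene has a longer window, the density is the better comparison: 6.91 peaks per 100 kb, at percentile 90.6. There were 15 peaks inside the gene, 1 upstream and 2 downstream. Of the 15, 14 lay in introns 1, 2 and 3, and 1 touched the coding part of exon 2. The scores of the 18 peaks ran from 571 to 842 with a median of 711.

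The highest score at Esrrb belonged to a peak of 635 bp in intron 3, at 141 kb from the first TSS. Scores of 816 at 34.5 kb, 812 at 72.4 kb and 803 at 138 kb followed. The widest peak, 907 bp with a score of 652, lay downstream at 196 kb. No peak was listed within 1 kb of any of the 5 RefSeq TSSs of Esrrb, and the closest peak edge lay 1569 bp from a TSS of a predicted transcript. From 31.8 kb upstream to 24.8 kb downstream of the TSS at the 5′ end of the gene no peak was listed.

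Tfcp2l1, a CP2-family factor and a target of LIF and STAT3, had 8 peaks (gene at chr1:118627923-118685168, plus strand). Upstream peaks lay at -30.9 kb with a score of 766 and at -1.27 kb with a score of 571. The edge of the latter was 1046 bp from a TSS, which puts it just outside the promoter distance. Intron 2 held 4 peaks, at 5.90, 14.8, 17.9 and 20.3 kb, with scores of 658, 805, 701 and 811. Downstream, peaks at 62.2 and 92.9 kb had scores of 821 and 653. The widest peak, in intron 2 at 14.8 kb, had 741 bp. At 5.09 peaks per 100 kb, Tfcp2l1 was at percentile 78.1 of all genes.

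Tbx3 encodes a T-box factor that supports self-renewal and also acts in limb and heart development. Its promoter peak was 833 bp wide with a score of 909, the highest of the 63 peaks and at percentile 98.9 of the list. The peak lay over a TSS and the untranslated part of exon 1 (gene at chr5:119670534-119684724, plus strand). The other 5 peaks of the window lay at -35.8, 11.1, 20.3, 34.1 and 39.2 kb, with scores of 706, 794, 595, 613 and 852. Of these, the peak at 11.1 kb was in intron 7, and the peak at 20.3 kb lay within 1 kb of a TSS of the noncoding gene Tbx3os2. The flanks between 50 and 100 kb added 7 peaks, for 13 in all, none of which scored above 728.

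Prdm14 encodes a PR-domain regulator that restrains FGF signalling and DNA methylation in stem cells and is needed for germ cell specification. The gene (chr1:13113428-13127163, minus strand) had 9 peaks, or 7.91 per 100 kb, at percentile 94.4. Its promoter peak, 616 bp wide with a score of 680, did not reach the TSS: the edge lay 555 bp upstream of it and the midpoint at -0.862 kb. Further peaks lay upstream, at -5.14 and -7.29 kb, with scores of 679 and 686, and another lay in intron 6, at 9.13 kb with a score of 710. Downstream peaks had scores of 731 at 23.2 kb, 613 at 31.8 kb, 812 at 42.1 kb, 806 at 52.4 kb and 618 at 57.4 kb. The peak at 31.8 kb was the widest of the 63, with 1620 bp, at percentile 99.5 of widths, and 55.7% of its central 300 bp was repeat sequence. The peak at 23.2 kb lay within 1 kb of a TSS of the noncoding gene Gm39592.

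Zfp42 encodes REX1, a zinc finger protein related to YY1 that serves as a marker of the naive state. It had the highest density of the 8 genes, with 10 peaks or 8.93 per 100 kb, at percentile 96.8 (gene at chr8:43295067-43307009, minus strand). The peak over its TSS was 643 bp wide with a score of 892, at percentile 98.2 of the list. Another peak counted as a promoter peak because it lay 105 bp from the TSS of a predicted transcript. It was 393 bp wide with a score of 755 and lay in intron 1, at 1.16 kb. Upstream there were 5 peaks, at -13.9, -21.8, -24.8, -26.7 and -31.8 kb, with scores of 850, 614, 749, 687 and 737. The one at -13.9 kb was the widest of the window, with 878 bp, and the one at -26.7 kb, with 191 bp, was the narrowest of the 63. Further peaks had scores of 636 in exon 4 (11 kb) and, beyond the gene, 717 (17.3 kb) and 569 (19.7 kb). The 100-kb flanks added none.

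**Figure D2:**
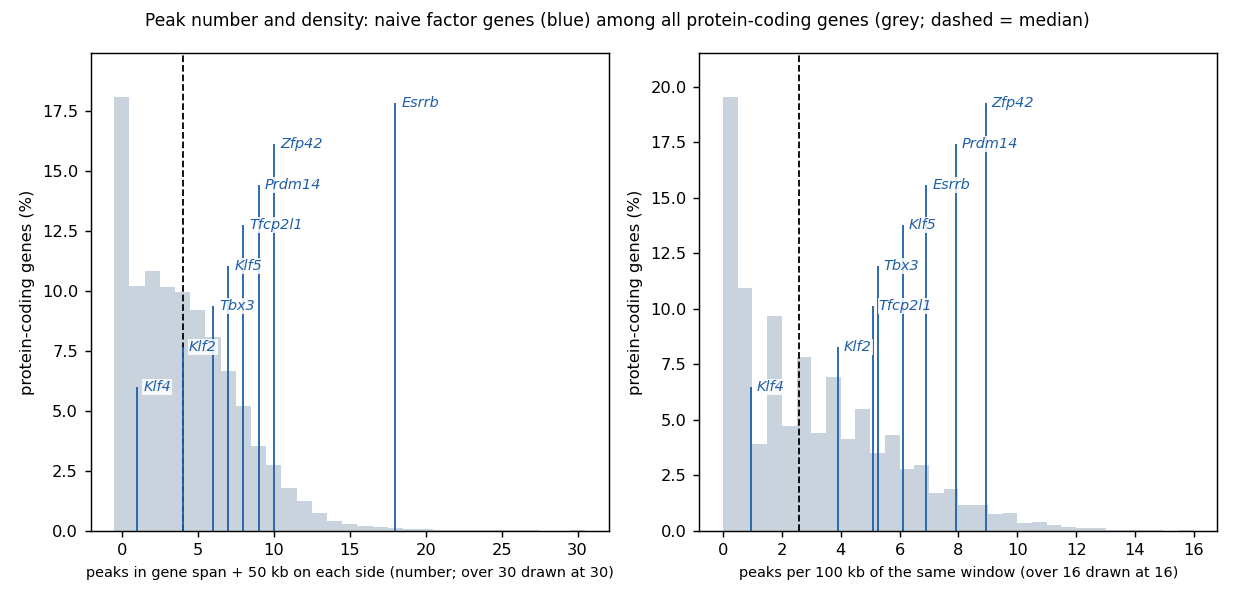
Distribution over 21774 protein-coding genes of the number of peaks per window (left) and of peaks per 100 kb (right), with the share of genes on the y axis, the median as a dashed line and the 8 genes as blue lines of staggered height. By number, 6 genes lie above the median of 4, Klf2 lies on it and Klf4 below it; by density, 7 lie above the median of 2.59.

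By density the order was Zfp42, Prdm14, Esrrb, Klf5, Tbx3, Tfcp2l1, Klf2 and Klf4, from 8.93 down to 0.949 per 100 kb. Neighbours in this order cannot be told apart, because the list gives no error. Of the 63 peaks, 17 lay upstream of their gene, 25 inside and 21 downstream. For 62 of the 63 the nearest TSS of any protein-coding gene belonged to the gene of the window, and no window held a TSS of another protein-coding gene. The exception was a peak in the Klf2 window closer to Ap1m1.

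The peaks of the 8 windows were about as wide as peaks in general and scored slightly higher. Median width was 552 bp against 547 bp for the list, and the median score was 717 against 696. With flanks of 100 kb the median score was 700. The higher score was not particular to the 8 genes. Of the companion lists described below, the median was 731 for formative and primed genes, 726 for other Klf genes, 738 for stem cell markers and 730.5 for fibroblast markers. It was 705 for other naive and LIF genes, 693 for core genes, 685 for relatives of the other factors and 657.5 for lineage regulators. A score above 696 was seen in 38 of the 63 peaks (60.3%), compared with 49.8% of the list. In the top of the list the difference was smaller: 4 of the 63 (6.35%) had a score of at least 851, which 5.01% of all peaks reached. These were the promoter peaks of Tbx3 and Zfp42, the Klf2 peak at -2.70 kb and the Tbx3 peak at 39.2 kb. A width of at least 1000 bp was seen in 2 of the 63, both downstream of Prdm14, and in 6.21% of the list.

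**Figure D3:**
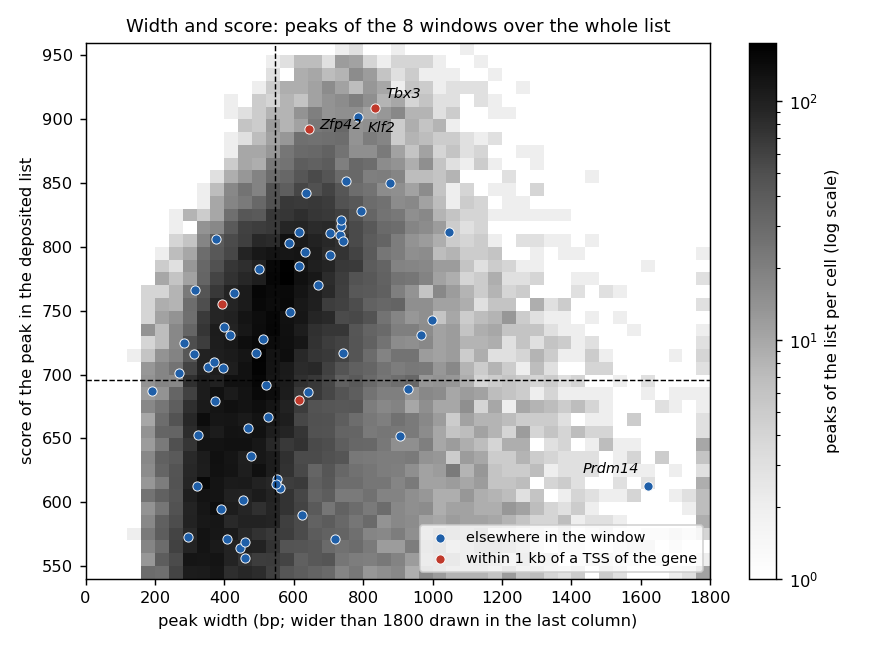
Width (x, bp) and score (y) of the 63 peaks over the whole list, whose peaks are counted per cell on a grey log scale; dashed lines are the list medians of 547 bp and 696. The promoter peaks of Tbx3 and Zfp42 and the Klf2 peak at -2.70 kb are at the top, and the 1620-bp peak of Prdm14 stands far to the right at a score of 613.

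Few of the peaks were at promoters. Counting TSSs of every RefSeq gene, noncoding ones included, 6 of the 63 peaks (9.52%) lay within 1 kb of a TSS, compared with 20.0% of the list. These were the 4 promoter peaks of Tbx3, Prdm14 and Zfp42 and the 2 at Tbx3os2 and Gm39592. No window held a TSS of another protein-coding gene, and how far this accounts for the low share was not tested. Among peaks away from promoters, the 57 at the 8 genes had a median width of 548 bp and a median score of 717, and the 32821 of the list had 519 bp and 689. Median GC content was 52.0% at the 8 genes and 52.7% in the list, and 6 peaks (9.52%) were repeat sequence over most of their central 300 bp, against 10.3%.

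Peaks at the 8 genes lay close to each other. When peaks no more than 12.5 kb apart were joined, 47 of the 63 (74.6%) fell into groups of 3 or more, compared with 33.8% of the list, and 30 (47.6%) into groups of 5 or more, compared with 12.1%. Only 10 of the 63 stood alone (15.9%), against 41.8%. The largest group was that of Esrrb, with 10 peaks over 53.8 kb, from 89.7 to 144 kb past the first TSS, and it held exon 2 and the peaks in intron 3. Tfcp2l1 had a group of 5 over 22.1 kb, from -1.47 to 20.6 kb. At Prdm14 the group of 5 lay wholly downstream, from 22.8 to 57.6 kb, and at Zfp42 a group of 5 ran from -0.488 to 19.9 kb and held both promoter peaks. The 5 peaks upstream of Zfp42 formed another group. All groups of 5 or more thus lay at Esrrb, Tfcp2l1, Prdm14 and Zfp42. The single peak of Klf4 stood alone. Joining was added after the data had been seen, and a window with many peaks is more apt to hold such groups.

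Companion gene lists placed these values among other regulators of early development. The genes of the core network (Pou5f1, Sox2, Nanog and Sall4) had a median of 9 peaks per window, from 5 at Sox2 to 13 at Sall4, and 3 of 4 had a promoter peak. For 14 other genes of the naive network and the LIF pathway there was a median of 7 peaks, with a promoter peak at 8. In that list Dppa3, Lifr and Stat3 had the most, with 10 each, and Nr0b1 had 1. The 8 formative and primed genes, which come up as cells leave the naive state, had a median of 4, from 2 at Otx2 to 11 at Lef1, with promoter peaks at 2. For 8 lineage regulators the median was 3, from 1 at Sox17 to 11 at Cdx2, again with promoter peaks at 2. The median of the 8 naive factors, 7.5, thus lay between those of the core network and of the other naive genes, and above those of the formative and lineage lists.

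Relatives of the same protein families had medians below that of the 8 naive factors together, but this did not hold within the Klf family. The 14 other Klf genes had a median of 6 peaks, from 0 at Klf14 to 11 at Klf12, and 3 of 14 had a promoter peak. In density this was 4.21 per 100 kb, compared with 6.10 at Klf5, 3.90 at Klf2 and 0.949 at Klf4, so the 3 naive members of the family fell on both sides of it. Among 25 relatives of the other 5 factors (Esrr, Tfcp2, Tbx, Prdm and Yy genes) the median was 4 peaks, from 0 at Prdm8 to 12 at Prdm10, and 3.08 per 100 kb, with a promoter peak at 13 of 25. Each of Esrrb, Tfcp2l1, Tbx3, Prdm14 and Zfp42 lay above that density, between 5.09 and 8.93.

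As a check of the cell type, a marker counted as seen when it had a promoter peak, as 29.9% of all protein-coding genes did. Of 10 stem cell markers, 4 had one, and the 10 had a median of 7.5 peaks per window. All of them but Lin28a and Utf1 are also in the lists above, so they are not a separate set. The 10 fibroblast markers, which stand for the feeder cells, had a median of 0 peaks, with 6 of 10 windows empty and promoter peaks at 2, Thy1 and Pdgfrb. The median distance from a TSS of the fibroblast markers to the nearest peak was 90.9 kb, against 1.38 kb for the stem cell markers. It was 1.31 kb for the naive factors and 8.70 kb for all genes. The part of feeder cells in the list was not tested.

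**Figure D4:**
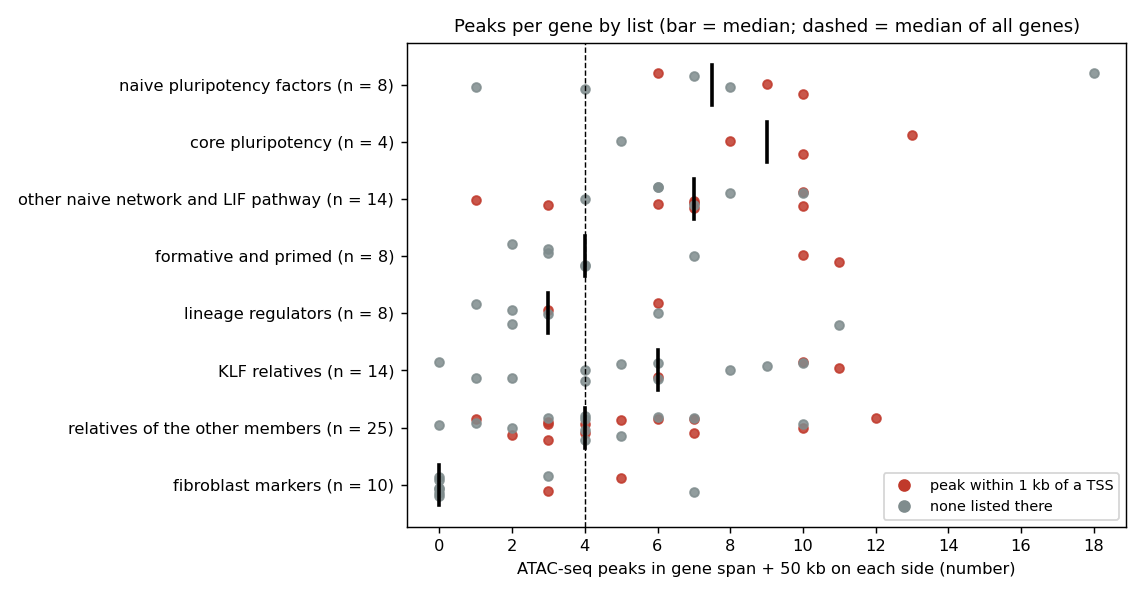
Peaks per window (x) for each gene of the naive factors and of 7 companion lists (rows), with the median of each list as a bar and the median of all genes as a dashed line; red points have a peak within 1 kb of a TSS. Esrrb, at 18, is the point farthest to the right, and 6 of the 10 fibroblast markers are at 0.

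The central 300 bp of the peaks were searched on both strands for exact matches to short forms of the motifs of these factors and of their partners. A match is a description and no evidence of binding. The KLF motif CCACACCC was found in 9 of the 63 peaks (14.3%), compared with 7.62% of all peaks. These peaks lay at Klf5 (2 peaks), Esrrb (3), Zfp42 (2), Tfcp2l1 and Tbx3. One of them, downstream of Klf5 at 22.3 kb, held 3 matches. The OCT4 octamer ATGCAAAT was found in 6 of 63 (9.52%), compared with 2.85% of all peaks. It occurred at -7.88 kb of Klf2, at 41.5 and 54.5 kb of Klf5, at 110 and 118 kb of Esrrb (intron 2) and in the promoter peak of Zfp42.

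The ESRRB motif TCAAGGTCA matched in 2 of 63 peaks (3.17%), compared with 1.27% of all peaks, and both lay in introns of Esrrb itself. One was the highest-scored peak of the gene, at 141 kb, where the match starts at base 268 of the sequence printed above, and the other lay at 25.1 kb with a score of 602 and held a KLF match too. The TFCP2L1 motif (CCAG, 6 bases, CCAG) was found in 3 peaks (4.76%), close to the 5.03% of all peaks. One was in intron 2 of Tfcp2l1 itself, at 20.3 kb with 2 matches, and the others were at 72.4 and 187 kb of Esrrb. The core motif of CTCF, the insulator protein, was found in 3 peaks (4.76%), against 4.77% of all peaks, at -36.5 kb of Klf5, 41.8 kb of Esrrb and 20.3 kb of Tbx3.

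No peak of the 8 windows held the STAT3 motif TTCCNGGAA, the TBX motif AGGTGTGA, the PRDM14 motif GGTCTCTAA or the motif AAGATGGC of YY1 and ZFP42 in its central 300 bp. In the list these were at 1.47%, 1.75%, 0.251% and 2.24%, so that few matches would be found among 63 peaks in any case. The GC box GGGCGG, a general promoter motif, was found in 10 of 63 (15.9%), compared with 22.3% of all peaks. Away from promoters it was in 7 of 57 (12.3%) and in 15.9% of the list. At least 1 motif of the 8 factors and partners, CTCF and the GC box left out, was held by 18 of 63 (28.6%) and by 20.6% of the list. With CTCF and the GC box counted too, at least 1 motif was held by 29 of 63 and by 42.4% of the list. When the whole peak was searched, these values were 37 of 63 and 56.4%.

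**Figure D5:**
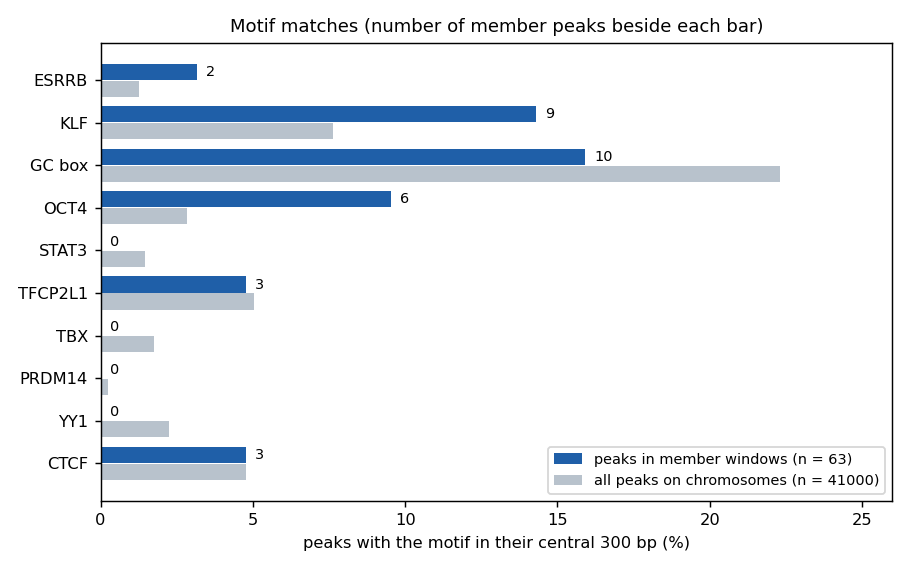
Share of peaks (x, %) with an exact motif match in the central 300 bp, for the 63 peaks at the 8 genes (blue, number of peaks beside the bar) and for the 41000 peaks of the list on chromosomes (grey). The blue bar is the longer one for ESRRB, KLF and OCT4, and the shorter one for the GC box and for the 4 motifs with 0 matches.

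Promoters of 5 of the 8 genes (Klf2, Klf4, Esrrb, Tfcp2l1 and Zfp42) were in the RefSeq promoter table, which spans 250 bp before to 50 bp after a TSS. Klf4 had the most GC-rich of them, with 74.3% GC, at percentile 95 of 17492 promoters, and Klf2 followed with 69.3%. Neither had a listed promoter peak, whereas Zfp42, with 57.7%, had one. Over all genes in the table, promoters with a peak had a median GC content of 58.7% and those without one 54.3%. The GC box was found 4 times in the promoter of Klf4 and 2 times each in those of Klf2 and Zfp42, and 46.3% of all promoters held it. Zfp42 alone of the 5 also held the KLF motif (in 3.63% of all promoters) and the OCT4 octamer (1.71%), the same matches as in its promoter peak.

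ZBTB21, the zinc finger factor that the study depleted, had 1827 peaks in mESCs in the study's supplementary ChIP-seq peak table. Esrrb was the only one of the 8 genes with a ZBTB21 peak in its window, compared with 21.9% of all protein-coding genes, and none of the 8 had one within 1 kb of a TSS, compared with 6.17%. Both ZBTB21 peaks of the Esrrb window lay inside the gene. One, at chr12:86469861-86470265, shared 255 bp with the ATAC-seq peak at 109 kb, which had 429 bp and a score of 764, and whose sequence over the start of exon 2 is printed above. This was 1 of the 63 peaks, and 1.98% of the list overlapped a ZBTB21 peak. The other, at chr12:86497097-86497686 in intron 3, overlapped no listed peak, the nearest lying 1000 bp away. From the TSSs of the 8 genes the nearest ZBTB21 peak lay 1.70 kb away at Esrrb (from the TSS of a predicted transcript), 72.9 kb at Tbx3, 173 kb at Klf2, and between 533 kb (Prdm14) and 12157 kb (Klf5) at the others.

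The study ranked its longer loops and took 500 as responsive and 500 as less responsive to ZBTB21 depletion. Its ranking used the ZBTB21 signal and the change of the cohesin signal, not the change of the loop itself. Both classes were compared here with the same genes, and loops in neither class were not examined. These classes were built with ZBTB21 and cohesin peaks and with signals at accessible sites, so they are not independent of the peak list. A TSS of Esrrb or Tbx3 lay within a responsive loop, that is 2 of 8 genes compared with 15.3% of all genes. For Esrrb there were 5 such loops, which overlap each other, are 650 to 925 kb long, and hold 27 to 51 ATAC-seq peaks and 3 or 4 ZBTB21 peaks each. All 18 peaks of the Esrrb window lay inside each of them. Tbx3 lay in 8, which also overlap each other, of 500 to 2300 kb with 17 to 74 ATAC-seq peaks. Each held all 6 peaks of its window. No TSS of the 8 genes lay in an anchor of 25 kb of a responsive loop, a position that 1.99% of all genes had. In such anchors lay 3 of the 63 peaks, compared with 2.08% of the list. All 3 belonged to the Tbx3 window. Those at 34.1 and 39.2 kb lay in the same anchor, which 4 loops share, and that at -35.8 kb lay in an anchor of 1 other loop.

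Klf4, the gene with the fewest peaks, was the only one with a TSS in a less-responsive loop, compared with 5.84% of all genes. The loop ran for 1175 kb, from 55525001 to 56700000 on chromosome 4, and held 6 ATAC-seq peaks and no ZBTB21 peak. The Klf4 TSS was in its first anchor, a position that 0.666% of all genes had. The peak of the window and the 3 further peaks downstream of Klf4 lay outside the loop, and the peak at -51.3 kb lay inside it. A responsive loop held a median of 24 peaks and a less-responsive loop a median of 2. Klf2, Klf5, Tfcp2l1, Prdm14 and Zfp42 had no TSS in any loop of either class.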

How the data were processed

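ATAC-seq libraries of untreated V6.5 mESCs were selected for mono- and dinucleosome fragments, per the labels. The authors deposited 1 list for both replicates with mm10 coordinates and a score per peak. How these peaks were called is not given in the sources used here. For ChIP-seq the study describes Cutadapt, Bowtie2, MACS2, an IDR threshold of 0.05 and removal of blacklisted regions, and the submitters' processing notes name cutadapt 2.6, Bowtie2 2.3.5.1, MACS2 2.1.1 and deepTools. The list was read here as deposited, with all 41014 peaks and no filter. Depth per sample is unknown, so no interval or floor was given.

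Overlaps of at least 1 bp were counted here with TSSs (78726 positions) and gene spans of the RefSeq annotation of GRCm38.p6, the assembly mm10 names, and with the study's supplementary ZBTB21 peaks and loops. Other columns of the ZBTB21 table were at hand only in part and were not used. Motifs were searched around peak midpoints, since the list has no summits. The list gives no value per replicate, and no test was run over genes or peaks. Named were all 8 genes with their promoter peaks, their highest-scored and widest peaks and any peak that overlaps a ZBTB21 peak, and in each companion list the genes with the most and fewest peaks. The genes, lists and rules were chosen with earlier results of these data known. Counting and motif search were tested on simulated intervals and sequences. Python 3.11.15, numpy 2.4.6, pandas 2.3.3 and matplotlib 3.10.9 were used.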

Additional observations from a re-analysis of the deposited data

How the results depend on the processing

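No paired analysis was possible because the list holds no values per replicate, and for the same reason no replicate could be left out. Of 57 alternative values, 35 stayed close to the value reported (within 1.5 times it) and 22 moved. This tally judges each value alone and not its order against all genes. The promoter count at 500 bp is therefore among the 35, although the order turned there. A TSS distance of 2.5 kb gave promoter peaks at 6 of the 8 genes, with Klf2, Esrrb and Tfcp2l1 added, and at 34.9% of all genes, and one of 500 bp at 2 of the 8 and at 27.9%. With flanks of 10 kb there were 37 peaks, a median of 4 per gene (1 over all genes) and 8.54 per 100 kb (2.39), and Klf4 had 0. With scores above 696 alone, 38 peaks, a median of 4.5 (2) and 3.51 per 100 kb (1.07) were left. Allowing 1 kb between an ATAC-seq peak and a ZBTB21 peak gave 3 peaks, all at Esrrb (2.28% of the list), flanks of 100 kb put a ZBTB21 peak at 2 genes, Esrrb and Tbx3 (31.1% of all genes), and counting only a TSS in an anchor left 0 genes with a responsive loop (1.99%). Single motif counts rest on few peaks: with the whole peak searched, STAT3 and TBX matches were in 3 peaks each (2.53% and 3.18% of the list) and ESRRB matches in 4 (2.27%). The medians of the 8 genes stayed above those of all genes under each of these flanks and score limits.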
